A study of Mus musculus with 10 samples.

Results

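Vascular leptomeningeal cells (VLMC) were described as the cells that the authors' deposited annotation names VLMC. They numbered 224 of 68914 annotated cells (0.325%), and they were the whole of cluster 22 with no cell of another class in it. VLMC were the least abundant of the 16 annotated classes, and only 2 of the 32 clusters held fewer cells. The cells came from mice that received bilateral hippocampal injections of neurofilament light chain (NfL) at 1 mg/ml, either as the whole protein (FL-NfL, n = 3) or as its coiled-coil stretch alone (CC-NfL, n = 3), or of vehicle (n = 4). NfL is a subunit of the filaments that support axons, and the study examined what it does to cells of the living brain when given from outside. All 10 mice were wild-type C57BL/6 males of 11 weeks, the tissue was taken 3 days after the injection, and no group received an unrelated protein. The labels place 6 libraries in batch b1 (replicates 1 and 2 of each group) and 4 in batch b2 (FL-NfL 3, CC-NfL 3, vehicle 3 and vehicle 4).

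VLMC are fibroblast-like cells of the arachnoid and pia, the inner membranes that cover the brain, and of the sheath around the larger vessels that enter it. They lay down collagens and proteoglycans of the extracellular matrix. Genes used to recognise them include Dcn, which encodes the small proteoglycan decorin, Lum, which encodes the related lumican, and Col1a1, which encodes a chain of type I collagen. The deposited table names the class and the map position of each cell and carries no gene values. The label was therefore not checked against these markers, and no expression within VLMC was measured.

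The libraries held 5434 to 17837 barcodes, of which 3150 to 14141 were annotated. Annotated cells made up 81.2% ± 1.58 of the barcodes in b2 (SD, n = 4) and 48.8% ± 10.8 in b1 (SD, n = 6), and the exact permutation p was 0.00476, the minimum for these library numbers. A barcode sequence occurred in more than 1 library for 1414 of 106835 distinct barcodes (1.32%). This held for 2 of the 224 VLMC, and 0 barcodes were VLMC in 2 libraries.

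VLMC were recovered in 9 of 10 libraries, in numbers that varied widely within groups. FL-NfL libraries 1, 2 and 3 held 0, 19 and 43 VLMC, which is 0%, 0.603% and 0.380% of their annotated cells. CC-NfL libraries 1, 2 and 3 held 11, 16 and 39 VLMC, at 0.254%, 0.266% and 0.276%. Vehicle libraries 1 to 4 held 15, 3, 51 and 27 VLMC, at 0.387%, 0.0912%, 0.522% and 0.307%. The lowest and the highest share were thus both found after FL-NfL, and the CC-NfL and vehicle shares lay between them. The 3 CC-NfL shares lay inside the vehicle range, so the groups overlapped in each comparison. In all, 62 VLMC came from FL-NfL mice, 66 from CC-NfL mice and 96 from vehicle mice.

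**Figure D1:**
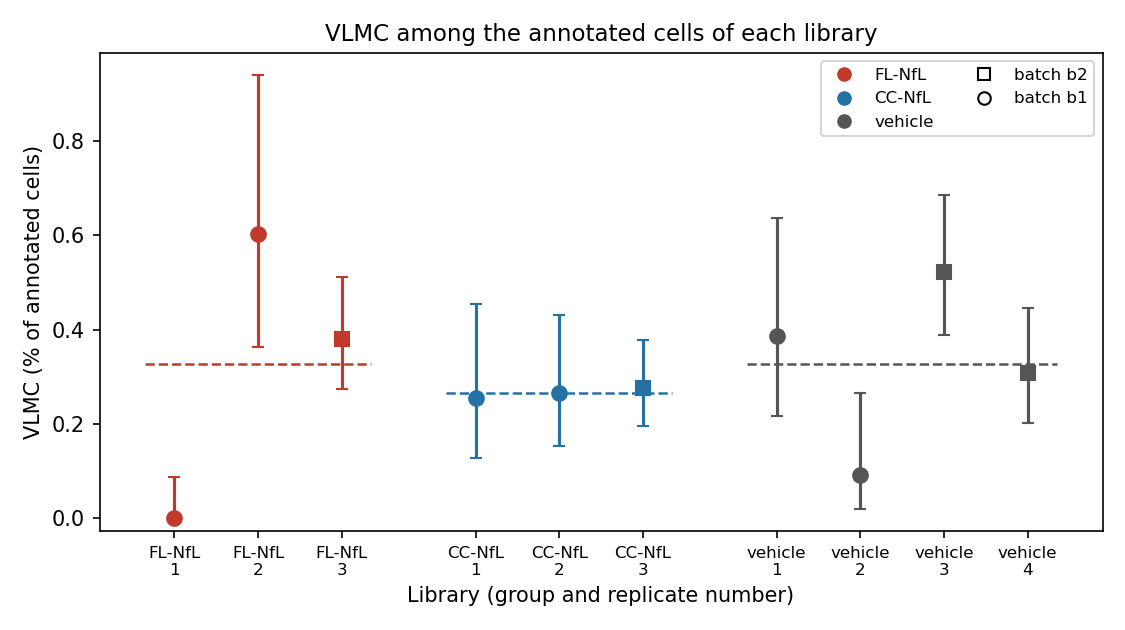
Percentage of VLMC among the annotated cells in each of the 10 libraries (y axis), by group and replicate number (x axis). Points are libraries (squares batch b2, circles batch b1), bars are exact 95% intervals for counting error, and dashed lines are group means of 0.328% for FL-NfL, 0.265% for CC-NfL and 0.327% for vehicle. The FL-NfL points run from 0% to 0.603% and enclose those of the other groups.

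With so few cells, the counting intervals were wide beside the values, although libraries within groups also scattered beyond counting error (given below). Exact (Clopper-Pearson) 95% intervals on the VLMC share ran from 0.364% to 0.940% in FL-NfL library 2, from 0.196% to 0.377% in CC-NfL library 3, and from 0.0188% to 0.266% in vehicle library 2. These intervals and the limit given next cover counting error alone. With 0 VLMC among 4220 annotated cells, FL-NfL library 1 is limited to a share of at most 0.0711% by the rule of 3 counts, and its exact 95% interval reaches 0.0874%. Both lay below the share of every other library, while the interval of vehicle library 2 reached under them. In FL-NfL library 1 only 28.7% of the barcodes were annotated, the lowest share of the 10 libraries, against 47.0% to 82.7% in the others. The other vascular classes were also thin there, with 3 vascular smooth muscle cells, 5 VECA and 20 pericytes, whereas its 86 BMEC made up 2.04% of its cells. This was not particular to that library, as CC-NfL library 1 held 5, 6 and 22 cells of the same 3 classes beside its 11 VLMC. The part of annotation yield in the absence of VLMC from FL-NfL library 1 was not tested.

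FL-NfL against vehicle asked whether the share of VLMC changes after the whole protein. VLMC made up 0.328% ± 0.305 of annotated cells after FL-NfL (SD, n = 3) and 0.327% ± 0.181 after vehicle (SD, n = 4). On the log2 odds scale, with batch as a term, limma gave an estimate of -0.86 (SE 1.22, 95% interval -3.64 to 1.92, adjusted p = 0.993), so VLMC did not pass the test at an adjusted p of 0.05. Limma called 2 of the 16 classes in this comparison (12.5%), and VLMC were not among them. An exact permutation test of the percentages gave p = 1.00, where the smallest possible value is 0.0286. The negative sign rested on the library without VLMC: leaving out FL-NfL replicate 1 turned the estimate to 0.75 (SE 0.64, limma adjusted p = 0.999), and the mean percentages of all libraries did not share that sign. Leaving out FL-NfL replicate 2, the library richest in VLMC, moved it to -2.10 (SE 1.04, limma adjusted p = 0.419). The interval covers a fall and a rise of several-fold, so neither was detectable with these libraries.

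CC-NfL against vehicle asked the same of the coiled-coil part. VLMC made up 0.265% ± 0.0107 of annotated cells after CC-NfL (SD, n = 3) and 0.327% ± 0.181 after vehicle (SD, n = 4). The exact permutation p was 0.600. Limma estimated the log2 odds ratio at 0.090 (SE 1.22, 95% interval -2.69 to 2.87, adjusted p = 0.968). Its sign depended on the model, as the difference in mean percentage was negative. Limma called 0 of 16 classes here (0%), with 3 at an unadjusted p under 0.05 and 0 called by a quasi-binomial model. The CC-NfL libraries lay close together, with a range of 0.254% to 0.276%, which is narrower than the counting interval of any of them.

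The direct contrast of FL-NfL with CC-NfL addressed a difference between the whole protein and its coiled-coil stretch. VLMC had a log2 odds ratio of -0.95 (SE 1.29, limma's 95% interval -3.89 to 1.99, adjusted p = 0.918). For the percentages the exact permutation p was 0.700, where 3 against 3 libraries cannot go below 0.10. Limma called 0 of 16 classes (0%), with 1 at an unadjusted p under 0.05 and 0 called by the quasi-binomial model. Without FL-NfL replicate 1 the estimate was 0.79 (SE 0.68, limma adjusted p = 0.823). Over both NfL groups together VLMC made up 0.296% ± 0.196 of annotated cells (SD, n = 6), against 0.327% ± 0.181 in vehicle libraries (SD, n = 4). Limma put this difference at -0.38 on the log2 odds scale (SE 1.03, 95% interval -2.74 to 1.97, adjusted p = 0.884). Limma called 2 of 16 classes in this last comparison (12.5%), again without VLMC. The sign of this estimate turned without FL-NfL replicate 1 (0.36) and without vehicle replicate 1 (0.057). The comparisons with vehicle share the same 4 vehicle libraries and are not independent.

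VLMC were next compared between the batches named in the labels. They made up 0.371% ± 0.110 of annotated cells in b2 (SD, n = 4) and 0.267% ± 0.214 in b1 (SD, n = 6). An exact permutation test gave p = 0.405. The log2 odds ratio for b2 minus b1 was 1.05 (SE 1.03, 95% interval -1.31 to 3.41, limma adjusted p = 0.720), and it was 0.31 without FL-NfL replicate 1. Limma called 1 of 16 classes between batches (6.25%), the vascular smooth muscle cells, at 1.77 (SE 0.35, adjusted p = 0.0142). As a share of all barcodes, VLMC made up 0.302% ± 0.0937 in b2 and 0.145% ± 0.124 in b1 (exact permutation p = 0.0714), and that share also moves with the annotated part of the barcodes given above. Within b2, VLMC made up 0.380% after FL-NfL and 0.276% after CC-NfL (1 library each), against 0.415% on average in 2 vehicle libraries. Within b1 the means over 2 libraries each were 0.302% after FL-NfL, 0.260% after CC-NfL and 0.239% after vehicle. The effect of either protein did not differ detectably between b2 and b1 (log2 odds 0.13, SE 2.15, 95% interval -4.78 to 5.04, limma adjusted p = 0.966), and its sign turned on several alternative scales.

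A narrower denominator removes the glial, neuronal, neural progenitor, immune, choroid and ependymal cells, whose numbers set most of the total. VLMC were therefore also counted among the 5 vascular and stromal classes. The others are BMEC (read here as brain microvascular endothelial cells, which form the blood-brain barrier), VECA (a vascular class that the annotation does not spell out), pericytes, which wrap capillaries, and VSMC, the smooth muscle cells of arterial walls. VLMC were 224 of these 2454 cells (9.13%). Among vascular and stromal cells, VLMC made up 0%, 16.1% and 9.82% in FL-NfL libraries 1 to 3. The shares were 16.7%, 7.27% and 10.5% in CC-NfL libraries 1 to 3. In vehicle libraries 1 to 4 they were 7.73%, 2.59%, 9.96% and 8.88%.

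The 4 libraries of b2, which include all 3 groups, lay between 8.88% and 10.5%, while the 6 libraries of b1 spread from 0% to 16.7%. The number of vascular and stromal cells behind these shares was larger in b2, and the exact 95% interval of CC-NfL library 1 (b1) ran from 8.62% to 27.9%, against 7.20% to 13.0% for FL-NfL library 3 (b2). The vascular and stromal classes together made up 3.44% of annotated cells after FL-NfL, 2.60% after CC-NfL and 4.31% after vehicle. For either protein against vehicle the exact permutation p of this denominator was 0.0714 (adjusted 0.267). A share of VLMC within it moves with the denominator as well as with VLMC. The group means of the VLMC share were 8.64% ± 8.12 after FL-NfL, 11.5% ± 4.77 after CC-NfL and 7.29% ± 3.27 after vehicle (SD, n = 3, 3 and 4). None of the 4 contrasts passed an exact permutation test. The p-values were 0.886 for FL-NfL and 0.257 for CC-NfL against vehicle, 0.600 between the proteins and 0.490 for either protein. Adjusted over these 4 contrasts, the permutation p ran from 0.800 to 0.886. The smallest possible permutation p is 0.0286 for each protein against vehicle, 0.10 between the proteins and 0.00476 for either protein. The contrast between the proteins therefore could not pass. The direction for FL-NfL turned without FL-NfL replicate 2 (a difference of -2.38 percentage points) and without vehicle replicate 2 (-0.22).

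**Figure D2:**
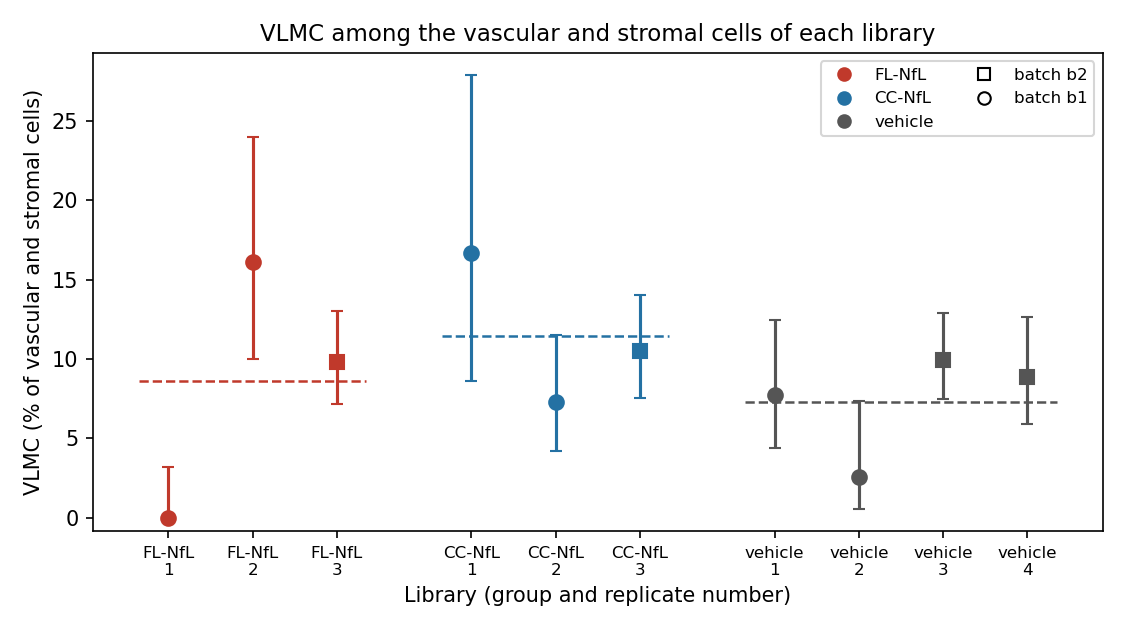
VLMC as a percentage of the cells of the 5 vascular and stromal classes in each library (y axis), by group and replicate number (x axis). Points are libraries (squares batch b2, circles batch b1), bars are exact 95% intervals for counting error, and dashed lines are group means. The squares lie between 8.88% and 10.5% in all 3 groups, and the circles between 0% and 16.7%.

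Whether VLMC responded differently from the classes most like them was tested on the log2 ratio of VLMC to each of the other 4 classes, for each protein against vehicle. None of the 8 ratios passed the test (exact permutation p from 0.257 to 1.00, adjusted over the 8 from 0.947 to 1.00). The smallest possible permutation p was 0.0286 for each ratio, so 1 ratio alone could not pass after this adjustment. After CC-NfL the mean log2 ratio of VLMC to BMEC was -1.47, against -2.42 after vehicle, a difference of 0.95 (exact permutation p = 0.257). The difference was 0.75 relative to VSMC, 0.71 relative to VECA and 0.38 relative to pericytes. Single libraries set much of these sizes. Without vehicle replicate 2 the difference was 0.45 relative to BMEC and -0.21 relative to pericytes. Without CC-NfL replicate 1 it was 0.41 relative to VSMC and 0.20 relative to VECA. Among annotated cells, limma's CC-NfL estimates were 0.090 for VLMC, -1.07 for BMEC, -0.69 for VECA, -0.54 for VSMC and -0.49 for pericytes, none called. The ratios after CC-NfL thus hold the lower estimates of the other classes as well as that of VLMC. After FL-NfL the 4 differences ran from -1.07 relative to BMEC to -0.15 relative to VSMC, and each turned positive without FL-NfL replicate 1. These values do not show that the classes act alike, because the limma intervals of VLMC given above are wide and few libraries limit the permutation tests.

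**Figure D3:**
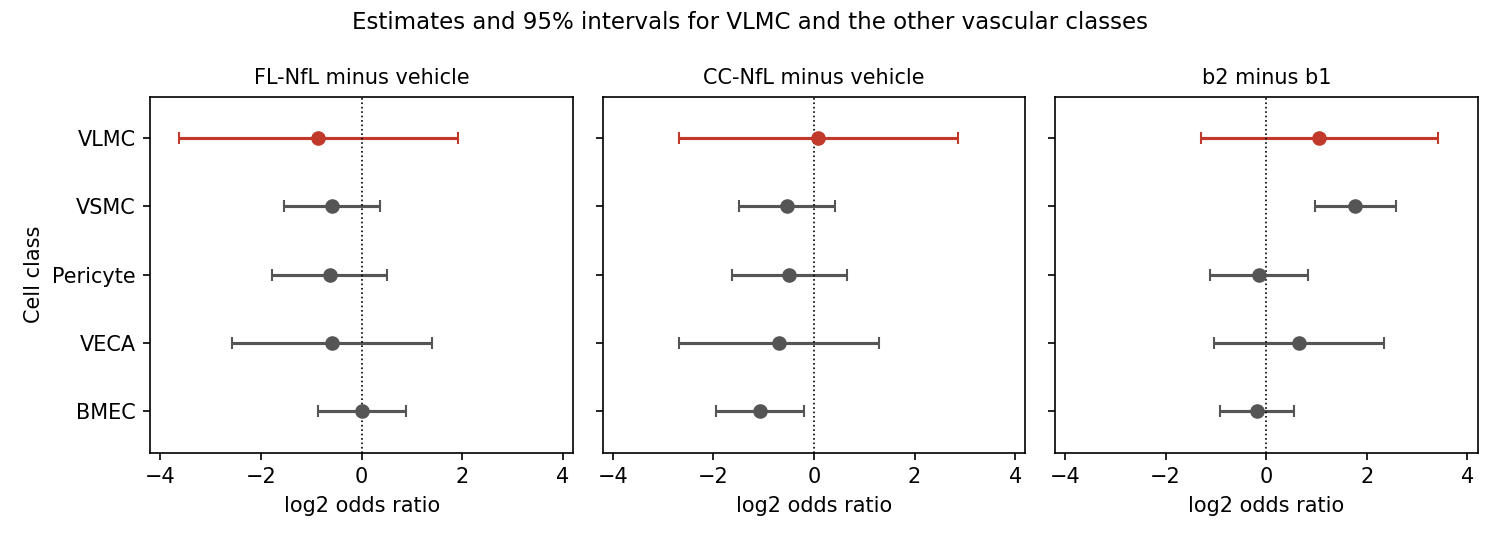
Log2 odds ratios (x axis) of VLMC and the other 4 vascular and stromal classes (y axis) from limma, in panels for FL-NfL minus vehicle, CC-NfL minus vehicle and b2 minus b1. Points are estimates and bars are 95% intervals, with VLMC in red. The VLMC interval is the widest in each panel and crosses 0, and VSMC are the class called between batches, at 1.77.

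Over all 10 libraries, VECA had the highest correlation with VLMC of the 15 other classes, by Pearson's r and by Spearman's rho. VECA made up 0.118%, 0.603% and 0.477% of annotated cells in FL-NfL libraries 1 to 3, 0.139%, 0.432% and 0.467% in CC-NfL libraries 1 to 3, and 1.32%, 0.152%, 1.11% and 0.352% in vehicle libraries 1 to 4. The libraries poorest in VLMC, FL-NfL 1 and vehicle 2, were among the 3 poorest in VECA, together with CC-NfL 1. Over the log2 odds of 10 libraries Spearman's rho was 0.90 (permutation p = 0.00093, adjusted over 15 classes 0.0139) and Pearson's r was 0.72 (permutation p = 0.00371, adjusted 0.0556). By rank 1 of 15 classes passed (6.67%). By Pearson's r 0 of 15 passed (0%), with 2 at an unadjusted permutation p under 0.05. Without the 2 libraries farthest from the median VLMC value, FL-NfL 1 and vehicle 2, r was 0.65 (permutation p = 0.0783), so the threshold was not reached on the remaining 8. Within b1 r was 0.69 (n = 6, permutation p = 0.0874), and b2 held too few libraries for a value. In b1 alone VECA did not rank first, as Reelin neurons had an r of 0.86, VSMC of 0.77 and choroid cells of 0.72. Leaving out each library gave r from 0.70 to 0.82, with adjusted permutation p from 0.0171 (without CC-NfL replicate 1) to 0.434 (without vehicle replicate 3). The rank call, examined under the same alternatives after the data were seen, was lost without FL-NfL replicate 1 and without FL-NfL replicate 3 (rho 0.87 in both, adjusted permutation p = 0.0693 and 0.0684). It was also lost on the centred log ratio, where rho was 0.72 (adjusted permutation p = 0.361) and r 0.59 (adjusted permutation p = 0.264). Shares of the same total are not independent of each other.

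The remaining classes of the vessels and brain surfaces had lower correlations with VLMC over all 10 libraries. For VSMC r was 0.60 (permutation p = 0.0561, adjusted 0.281) and rho 0.43, and without the 2 farthest libraries r was 0.21. For pericytes r was 0.48 (adjusted permutation p = 0.500) and rho 0.37. Choroid cells, the epithelium that makes cerebrospinal fluid, had an r of 0.56 (permutation p = 0.0456, adjusted 0.281) and a rho of 0.76 (adjusted 0.113). For ependymal cells, which line the ventricles, r was 0.11 and rho 0.49, but r was 0.64 without FL-NfL replicate 1 and 0.59 without the 2 farthest libraries. For BMEC r was -0.30 and rho 0.02. The sign of the BMEC value was positive over all barcodes, and without the 2 farthest libraries r was 0.67 (permutation p = 0.0568), above the 0.65 of VECA on those 8 libraries.

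**Figure D4:**
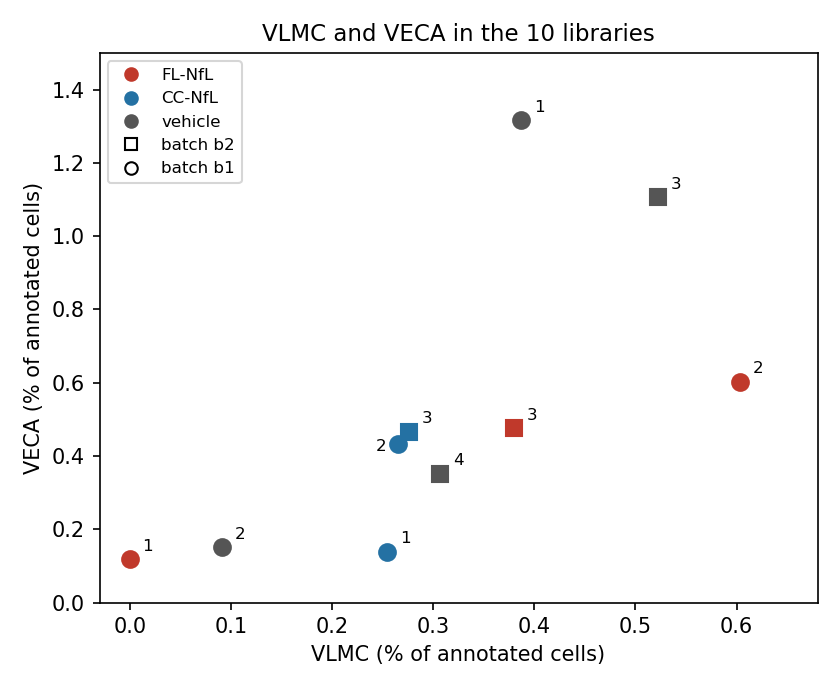
VECA (y axis) against VLMC (x axis), each as a percentage of annotated cells, in the 10 libraries. Colours are groups, squares batch b2, circles batch b1, and digits replicate numbers. Libraries with 0% and 0.0912% VLMC have 0.118% and 0.152% VECA, and vehicle libraries 1 and 3 have the most VECA at 1.32% and 1.11%.

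Over all 10 libraries the VLMC share had a coefficient of variation of 58.4%, and 7 of the 16 classes had a higher one, among them VSMC with 79.6% and VECA with 78.2%. BMEC and pericytes were steadier, with 34.1% and 37.6%. The scatter of VLMC counts within groups was 5.12 times that of counting error alone (chi-square divided by its degrees of freedom, where counting error alone gives 1). Without FL-NfL replicate 1 this ratio was 2.82. The ratio grows with the number of cells in a class, so it does not rank classes of different size.

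On the authors' t-SNE map, which places cells with similar profiles near each other in arbitrary units, VLMC formed a single compact group. Their root-mean-square distance to the cluster centre was 0.584 units, close to 0.595 in choroid cluster 12 and 0.654 in VSMC. It was 0.866 in VECA, 2.33 in BMEC and 2.49 in pericytes. All of the 30 nearest annotated cells of every VLMC were VLMC (100%), and so were the 50 nearest. The same share was not computed for other classes, so it does not set VLMC apart from them. The largest distance between 2 VLMC was 1.86 map units, and the nearest cell of another class lay 4.59 units away. That cell belonged to cluster 25 of NPC (neural progenitor cells), and NPC were the nearest other class for all 224 VLMC. The cluster centres nearest to that of VLMC were those of cluster 25 at 7.95 units and of the other immune cells at 10.1 units. Those of the other vascular and stromal classes lay farther away, at 43.7 units for BMEC, 62.7 for VECA, 67.3 for VSMC and 68.5 for pericytes. Nearness between clusters is therefore not read here as likeness of the classes. Within the group, VLMC lay along an almost straight line, with 99.999% of the variance of their positions on its main axis. This share was the highest of the 32 clusters, whose median was 82.6% for the other 31, and only 1 other cluster, number 12 of the choroid cells (99.5%), exceeded 99%. Distances on such a map depend on its settings, which no source used here states.

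Positions along this line ran from -0.83 to 1.02 map units around the centre of all VLMC. The mean position was -0.03 in FL-NfL library 2 and 0.32 in FL-NfL library 3. It was -0.27, -0.23 and -0.19 in CC-NfL libraries 1 to 3. In vehicle libraries 1, 3 and 4 it was -0.19, 0.08 and -0.01, and vehicle library 2 had 3 cells only, under the minimum of 5. FL-NfL library 3 stood at the positive end, with a median of 0.57 against -0.38 to 0.09 in the other 7 libraries with at least 5 VLMC. CC-NfL and vehicle libraries met at -0.19, and the highest single cell stood at 0.44 in CC-NfL library 1, at 0.79 in vehicle library 2 and at 0.95 to 1.02 in the other 7 libraries with VLMC. Within each batch, among libraries with at least 5 VLMC, the FL-NfL library had the highest mean and the CC-NfL libraries the lowest, with vehicle libraries between them. The contrast between the proteins was not tested on the map.

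The distance between group means on the map was 0.188 units for FL-NfL (2 libraries) and 0.190 for CC-NfL (3 libraries) against 3 vehicle libraries, with exact permutation p-values of 0.500 and 0.200 (adjusted over 4 comparisons 0.667 and 0.400). Neither comparison can give a p under 0.10, so neither could pass. Without FL-NfL replicate 3 the FL-NfL distance was 0.012. For either protein against vehicle the distance was 0.0390 (exact permutation p = 0.786, smallest possible 0.0179). Between b2 and b1 it was 0.232 units over 4 libraries each (exact permutation p = 0.0571, adjusted 0.229, smallest possible 0.0286). The batch difference did not pass after adjustment. In view of its size the libraries were also permuted within batches, an alternative chosen after the data were seen. The exact permutation p-values were then 0.333 for FL-NfL, 0.111 for CC-NfL and 0.792 for either protein (adjusted over these 3 from 0.333 to 0.792), where the smallest possible are 0.167, 0.111 and 0.0417. The CC-NfL value was thus the smallest that this design allows. Single VLMC of the 3 groups overlapped along the line, and these tests do not show that their mean positions were alike.

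**Figure D5:**
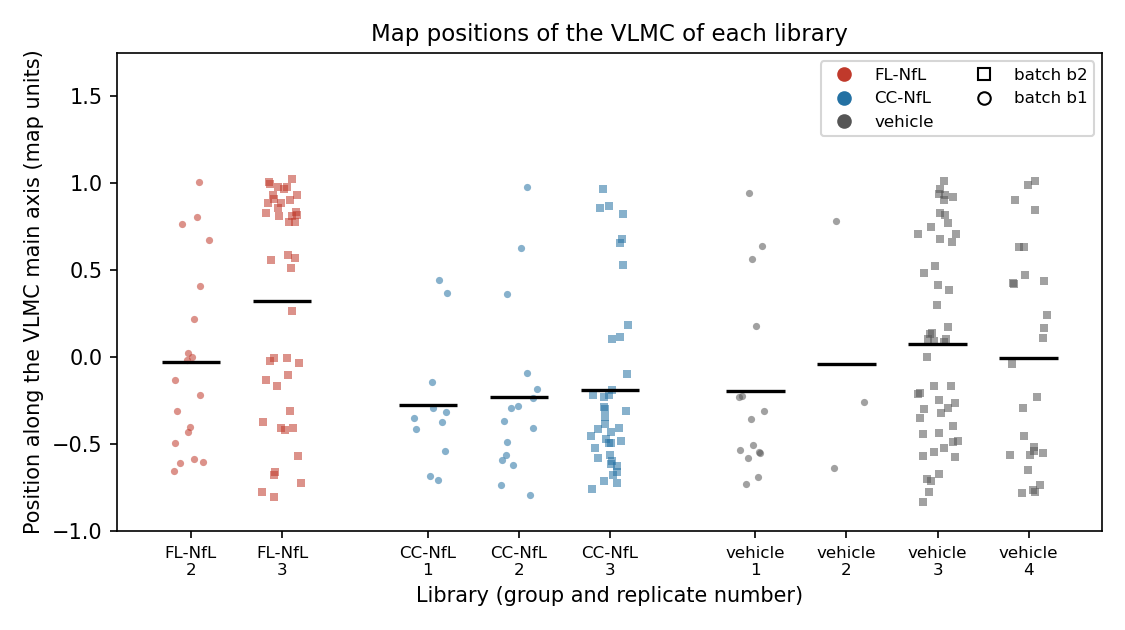
Position of each VLMC along the main axis of the VLMC group on the authors' t-SNE map, in arbitrary map units (y axis), for the 9 libraries with VLMC (x axis). Points are cells (squares batch b2, circles batch b1) and black lines are library means. Cells of all groups span most of the line, and the mean of FL-NfL 3 is the highest at 0.32.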

How the data were processed

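Per the labels' protocols, hippocampal cells were released by enzymes together with actinomycin D, sorted for live cells and loaded for droplet 3′ libraries. Per the submitters' processing notes, Cell Ranger 6.0.1 and the build GRCm38 were used. Cell filters, doublet removal, clustering and map settings are not stated in the sources used here, and no doublet caller was run, since the table holds no gene counts. The authors' deposited table gives a class, a cluster number and a t-SNE position, a score in arbitrary units set by the authors, for 68914 of 108266 barcodes. The misspelt class name Perictye was corrected to Pericyte, and condition and batch matched the labels for all annotated cells. Libraries, not cells, served as replicates.

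For each of the 16 classes (each averaging 10 or more cells per library), log2((cells + 0.5) / (other cells + 0.5)) was modelled on group and batch over all 10 libraries with limma 3.58.1 under R 4.3.3, with Benjamini-Hochberg adjustment over the classes. A second fit held the product of either NfL and batch. Percentages, ratios and positions were compared by exact permutation of libraries, two-sided except for map distances, which count values as large or larger. Correlations used 100000 permutations. The limma code was tested on simulated data. The class, its denominators and its comparisons were chosen with earlier results of these data known, and classes named beside VLMC are the vascular, choroid and ependymal ones. Alternatives covered the pseudocount (0.1 and 1), the scale, the model, the denominator, the batch term and leaving out each library.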

Additional observations from a re-analysis of the deposited data

Results flagged for a closer look

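Vehicle library 1 stood apart from the other vehicle libraries in the log2 ratio of VLMC to VSMC, at 1.05 against -0.89, -0.71 and -0.93, from 15 VLMC and 7 VSMC. Chance places a library this far from the others in about 1 of 20 sets of 4 that are drawn alike. The vehicle libraries come from 2 batches between which VSMC differed, so that rate does not apply directly. Another 6 sets of vehicle values were examined without such a library. VSMC were 0.593% ± 0.210 of cells in b2 (SD, n = 4) and 0.151% ± 0.0487 in b1 (SD, n = 6). Vehicle library 1 belongs to b1, as does vehicle library 2, where VSMC were 0.182% of cells, against 0.181% in vehicle library 1. The ratio was also positive in b1 libraries FL-NfL 2 (1.83), CC-NfL 1 (1.06) and CC-NfL 2 (0.40). It was -0.89 in vehicle 2 with 3 VLMC and -2.81 in FL-NfL 1 with 0 VLMC, both of b1. In b2 it was -0.71 and -0.93 in the vehicle libraries, -0.59 in FL-NfL 3 and -0.33 in CC-NfL 3. The part of batch in this ratio was not tested.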

How the results depend on the processing

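Over 118 alternatives to the 6 results for the VLMC share, its batch difference and its interaction, 0 reached an adjusted p under 0.05 (limma or quasi-binomial), but signs were unstable. The CC-NfL estimate turned negative on the arcsine scale (-0.0011), in the quasi-binomial model (-0.41) and without the batch term (-0.085), and the estimate between the proteins turned positive in the quasi-binomial model (0.29). The interaction turned negative without the most abundant class (-0.10), with a pseudocount of 1 (-0.040), as centred log ratio (-0.28) and as arcsine values (-0.0055). Among vascular and stromal cells FL-NfL turned to -0.70 as log2 odds, and the FL-NfL difference in VLMC to VSMC to 0.077 with a pseudocount of 1. Classes called as correlated with VLMC numbered 1 with a pseudocount of 0.1 and 6 over all barcodes, where the annotated share is part of each value. The correlation with ependymal cells turned to -0.25 with the centred log ratio, and that with BMEC to 0.35 over all barcodes.

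With the replicate number as a block (replicate block) the CC-NfL estimate was -0.048 (limma adjusted p = 0.971) and no VLMC call changed. Same-numbered libraries of different groups, all in the same batch, had deviations that correlated from -0.13 to 0.54. For differently numbered ones the values ran from -0.41 to 0.30 in the same batch and from -0.69 to 0.67 across batches. The libraries were not taken as paired, and these ranges do not decide whether they were.

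Leaving out each library gave -2.10 to 0.75 for FL-NfL, -0.32 to 0.63 for CC-NfL, -2.29 to 0.79 between the proteins, -0.96 to 0.36 for either protein and -1.10 to 1.09 for the interaction. Among vascular and stromal cells it gave -2.38 to 5.67 points for FL-NfL, -6.57 to 1.49 between the proteins, 1.59 to 6.29 for CC-NfL and 1.2 to 4.78 for either protein. Ratio differences after FL-NfL ran from -2.23 to 0.90 for BMEC, -0.98 to 0.75 for VECA, -1.32 to 0.99 for pericytes and -1.33 to 0.99 for VSMC, and after CC-NfL from 0.45 to 1.30, 0.20 to 0.98, -0.21 to 0.77 and 0.41 to 1.23 for the same 4 classes in that order. Map distances ran from 0.012 to 0.363 for FL-NfL, 0.131 to 0.267 for CC-NfL, 0.0017 to 0.139 for either protein and 0.141 to 0.312 between batches. Correlated classes numbered 0 to 1, r ran from -0.40 to 0.16 for BMEC and -0.17 to 0.64 for pericytes, and the scatter ratio from 2.82 to 6.59.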
